A study of Mus musculus with 8 samples.

Results

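The Schlafen genes form a cluster on mouse chromosome 11, and 8 of them were examined here, Slfn1, Slfn2, Slfn3, Slfn4, Slfn5, Slfn8, Slfn9 and the pseudogene Slfn10-ps, out of 24062 genes in the count table. They were chosen by symbol because Slfn8 and Slfn10-ps had lower counts in cells deleted for PARP2, so the PARP2 comparison is given for all 8 genes as a description, with no test. All 8 passed the filter on low counts, which left 13197 genes tested, and they were counted with between 105 and 7049 counts in every library.

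The study asked how loss of PARP1 or of PARP2, both enzymes that attach ADP-ribose to proteins at DNA breaks, changes the transcriptome of immature myeloid cells (IMCs). Marrow of 2-month-old C57BL/6 mice was cultured for 3 days with 40 ng/mL of M-CSF, the growth factor of the monocyte lineage, and 2 libraries of total RNA were made for each of 4 groups. PARP1 WT mice were PARP1 flox/flox, PARP1CKO mice were PARP1 flox/flox with lysozyme-Cre, and PARP2 WT and PARP2CKO mice were their PARP2 flox/flox counterparts, so the WT mice also carried floxed alleles but no Cre. Lysozyme-Cre acts in cells of the myeloid lineage, and a culture can keep cells that it did not recombine. In these libraries Parp1 had 206 ± 6.18 CPM (SD, n = 2) in PARP1 WT and 61.2 ± 2.91 in PARP1CKO (edgeR's quasi-likelihood test, adjusted p = 0.0134). CPM are counts scaled to the effective library size, which is the total over the tested genes times edgeR's TMM factor. The log2 fold change of Parp2 in PARP2CKO was -0.91 (standard error 0.0453, adjusted p = 0.000139 in the same test).

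Schlafen proteins are found in mammals and are best known in lymphocytes and myeloid cells, where many are induced by type I interferon and where several restrain growth or keep cells quiescent. Mouse members are sorted by length into short proteins (Slfn1 and Slfn2), intermediate proteins (Slfn3 and Slfn4) and long proteins (Slfn5, Slfn8 and Slfn9), and the long ones carry an additional helicase-like region. They share a core that in several members binds or cuts RNA, tRNA above all.

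The depth was between 37852450 and 61845125 counts per library, and the 8 genes together took between 0.0287% and 0.0457% of them. The labelled cell type was checked with marker genes. Summed levels were 3929 to 4592 CPM for 7 monocyte and macrophage markers and 2292 to 3023 CPM for 7 neutrophil markers, and Csf1r, the M-CSF receptor, had at least 1134 CPM in every library. Cd3e, a defining T cell gene, had at most 6 counts in any library, as had Cd3d and Cd3g. Of the other T and NK cell markers, Klrb1c had at most 5 counts and Ncr1 at most 2. Nkg7 (83 to 140 counts), Lck (25 to 40) and Cd8a (7 to 19) were detected in every library. The B cell marker Cd79a had 116 to 580 counts. In bulk RNA of a mixed culture, fewer cells of a type and less RNA per cell cannot be told apart.

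On GRCm38 (mm10) with GENCODE M21 annotation, the 8 genes lay within 263.8 kb. Slfn5 came first on the plus strand (chr11:82951349-82964840), followed by 3 genes on the minus strand, Slfn9 (chr11:82978390-82991830), Slfn8 (chr11:83002158-83020810) and Slfn10-ps (chr11:83028130-83040042). Slfn2 (chr11:83065112-83070678), Slfn1 (chr11:83116849-83122670), Slfn4 (chr11:83175186-83190216) and Slfn3 (chr11:83191330-83215154) followed on the plus strand. Slfn10-ps is annotated as a transcribed unprocessed pseudogene, and the others as protein-coding genes.

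Slfn8 and Slfn9 also resembled each other in the sequence before their starts, which is shown because both are neighbors with an interferon-type motif. Both were lower in PARP2CKO than in PARP2 WT, at log2 fold changes of -1.18 for Slfn8 and -0.29 for Slfn9. Slfn5, which also had such a motif, was higher, at 0.30. Genes without it were also below 0, namely Slfn1 (-0.57), Slfn4 (-0.29), Slfn3 (-0.14) and Slfn2 (-0.11). Any link between the motif and these values was not tested. RefSeq windows of 250 bases upstream of the gene start (GRCm38.p6) were found for 7 of the 8 genes. The windows of Slfn8 (chr11:83020811-83021060, minus strand) and Slfn9 (chr11:82991831-82992080, minus strand) follow, written 5′ to 3′ along the gene, with the match to the interferon-stimulated response element in capitals.
Slfn8: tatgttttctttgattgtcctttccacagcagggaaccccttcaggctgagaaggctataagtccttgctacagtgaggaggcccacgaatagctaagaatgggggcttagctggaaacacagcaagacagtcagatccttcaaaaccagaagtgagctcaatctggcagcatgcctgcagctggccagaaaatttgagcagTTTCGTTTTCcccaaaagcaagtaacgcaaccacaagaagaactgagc
Slfn9: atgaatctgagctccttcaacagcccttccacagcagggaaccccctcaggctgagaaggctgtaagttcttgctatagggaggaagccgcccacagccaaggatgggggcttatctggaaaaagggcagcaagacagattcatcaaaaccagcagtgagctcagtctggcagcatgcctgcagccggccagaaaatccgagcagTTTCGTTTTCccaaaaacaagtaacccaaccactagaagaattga

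Aligned to each other, these windows were identical in 206 of 258 columns (79.8%), whereas the other pairs among the Schlafen windows, Slfn14 included, were 40.7% to 49.1% identical. The element was searched on both strands as GAAA, any 2 bases and GAAA, and its match began 48 bases before the start of Slfn8 and 45 bases before that of Slfn9, in both cases on the strand opposite to the gene. Another match lay 155 bases before the RefSeq start of Slfn5, in a window that falls inside the longer gene span of GENCODE, and Slfn1, Slfn2, Slfn3 and Slfn4 had none in their windows. Such a match was present in 2.98% of 32851 windows of this length over all genes. Sites for TCF factors, the DNA-binding partners of beta-catenin, were written as CTTTG followed by AA, AT, TA or TT. They were found once in this window of Slfn8 (242 bases before the start) and once in Slfn5 (163 bases before), against 14.8% of all windows, and overlapped no other motif. RefSeq lists another start of Slfn8 downstream, whose window (chr11:83020723-83020972) holds the same interferon-type match 136 bases before that start and no TCF match. A match is a description of letters and not a measured binding site.

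Levels can be set side by side between genes only per length, so CPM were divided by kilobases of annotated exon. Slfn2, which keeps T cells and monocytes quiescent, stood highest, with group means between 65.8 and 80.1 CPM per kb. Slfn5, a long nuclear member, followed with 15.1 to 20.3 CPM per kb, and the libraries of these 2 genes did not overlap with each other or with those of any other Schlafen gene. The remaining 6 genes had group means between 1.19 and 7.41 CPM per kb and overlapped across libraries. Their means over the 8 libraries were 5.59 for Slfn10-ps, 5.57 for Slfn9, 4.84 for Slfn8, 4.52 for Slfn3, 4.03 for Slfn4 and 2.84 CPM per kb for Slfn1.

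**Figure D1:**
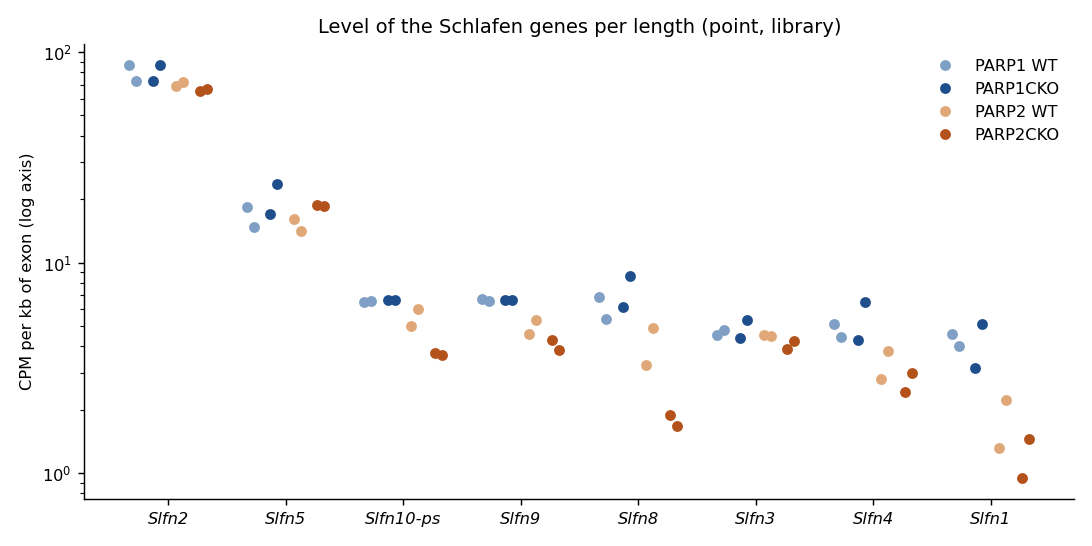
Level of each Schlafen gene in CPM per kb of exon (log axis), with a point for each of the 8 libraries, colored by group, and genes ordered by their mean. Slfn2 and Slfn5 stand above the others in every library, and Slfn8 has the widest gap between groups, from 1.78 CPM per kb on average in PARP2CKO to 7.41 in PARP1CKO.

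Across libraries the genes also varied to different extents. The highest library exceeded the lowest 5.38-fold for Slfn1 and 5.15-fold for Slfn8, 2.67-fold for Slfn4, and 1.34-fold to 1.82-fold for the other 5 genes. PARP1CKO replicate 2 had the highest CPM of the 8 libraries for 6 of the 8 genes. A PARP2CKO library had the lowest for 7 of 8, Slfn5 being the exception. The shares over all genes are not given, and low PARP2CKO values led to the choice of the genes. Nothing is therefore read from these 2 counts.

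Slfn8, a long Schlafen protein, measured 27.9 and 22.1 CPM in the PARP1 WT pair, 25.2 and 35.4 in the PARP1CKO pair, 13.3 and 19.9 in the PARP2 WT pair, and 7.73 and 6.88 CPM in the PARP2CKO pair. Both PARP2CKO libraries lay below each of the 6 others, and the PARP2 WT libraries lay between them and the PARP1 libraries. These values rested on 332 to 1602 counts per library. In PARP2CKO the mean level was 7.30 ± 0.603 CPM (SD, n = 2) against 16.6 ± 4.64 in PARP2 WT, a ratio of 0.441 and a log2 fold change of -1.18 (standard error 0.226). The PARP2 WT libraries differed from each other, and the log2 fold change was -0.87 without replicate 2 and -1.44 without replicate 1. These libraries also differed in Parp1, which had 251 CPM in PARP2 WT replicate 1 and 155 CPM in replicate 2, beside 263 and 264 CPM in PARP2CKO. The part of this difference in the Slfn8 values was not tested.

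Slfn10-ps, the pseudogene next to Slfn8, measured 23.5 and 23.7 CPM in the PARP1 WT pair, 24.0 and 24.1 in the PARP1CKO pair, 18.0 and 21.8 in the PARP2 WT pair, and 13.5 and 13.2 CPM in the PARP2CKO pair. The 4 PARP1 libraries lay close together, and both PARP2CKO libraries lay below every other library. The log2 fold change in PARP2CKO was -0.58 (standard error 0.0855), a ratio of 0.671, and moved between -0.71 and -0.43 when either PARP2 WT library was left out.

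Slfn9, the other long gene of this strand, measured 39.9 and 39.3 CPM in the PARP1 WT pair, 39.4 and 39.4 in the PARP1CKO pair, 27.4 and 31.8 in the PARP2 WT pair, and 25.6 and 22.8 CPM in the PARP2CKO pair. It was lowest in PARP2CKO and next lowest in PARP2 WT, as Slfn10-ps was, but with a smaller log2 fold change of -0.29 (standard error 0.0784) in PARP2CKO. Without PARP2 WT replicate 2 this value was -0.18, and without replicate 1 it was -0.39.

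Slfn5, which lies first in the cluster and is known as a nuclear regulator of interferon-responsive transcription, measured 116 and 93.2 CPM in the PARP1 WT pair, 107 and 149 in the PARP1CKO pair, 102 and 89.2 in the PARP2 WT pair, and 118 and 118 CPM in the PARP2CKO pair. It was the 1 gene of the 8 with both PARP2CKO libraries above both PARP2 WT libraries, at a log2 fold change of 0.30 (standard error 0.147).

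Slfn4 and Slfn3 are the intermediate members, and Slfn4 is known as an interferon-induced gene of macrophages and myeloid progenitors. Slfn4 measured 20.2 and 17.5 CPM in the PARP1 WT pair, 16.9 and 25.7 in the PARP1CKO pair, 11.1 and 15.1 in the PARP2 WT pair, and 9.64 and 11.8 CPM in the PARP2CKO pair. The PARP2 groups overlapped, at a log2 fold change of -0.29 (standard error 0.213) that was -0.05 without PARP2 WT replicate 2, -0.50 without PARP2 WT replicate 1, -0.15 without PARP2CKO replicate 1 and -0.44 without PARP2CKO replicate 2. Slfn3 measured 15.5 and 16.2 CPM in the PARP1 WT pair, 14.9 and 18.1 in the PARP1CKO pair, 15.4 and 15.3 in the PARP2 WT pair, and 13.3 and 14.5 CPM in the PARP2CKO pair. Slfn3 was lowest in PARP2CKO, at a small log2 fold change of -0.14 (standard error 0.0932) that was -0.08 without PARP2CKO replicate 1.

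Slfn1 and Slfn2 are the short members, and Slfn1 is known for arresting the growth of T cells when overexpressed. Slfn1 measured 8.50 and 7.48 CPM in the PARP1 WT pair, 5.89 and 9.47 in the PARP1CKO pair, 2.46 and 4.13 in the PARP2 WT pair, and 1.76 and 2.69 CPM in the PARP2CKO pair. Its PARP2 groups overlapped, and its log2 fold change of -0.57 (standard error 0.321) was -0.16 without PARP2 WT replicate 2, -0.91 without PARP2 WT replicate 1, -0.28 without PARP2CKO replicate 1 and -0.90 without PARP2CKO replicate 2. Slfn2 measured 145 and 122 CPM in the PARP1 WT pair, 122 and 144 in the PARP1CKO pair, 115 and 120 in the PARP2 WT pair, and 108 and 111 CPM in the PARP2CKO pair. Slfn2 kept a narrow range, at a log2 fold change of -0.11 (standard error 0.0914) in PARP2CKO.

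**Figure D2:**
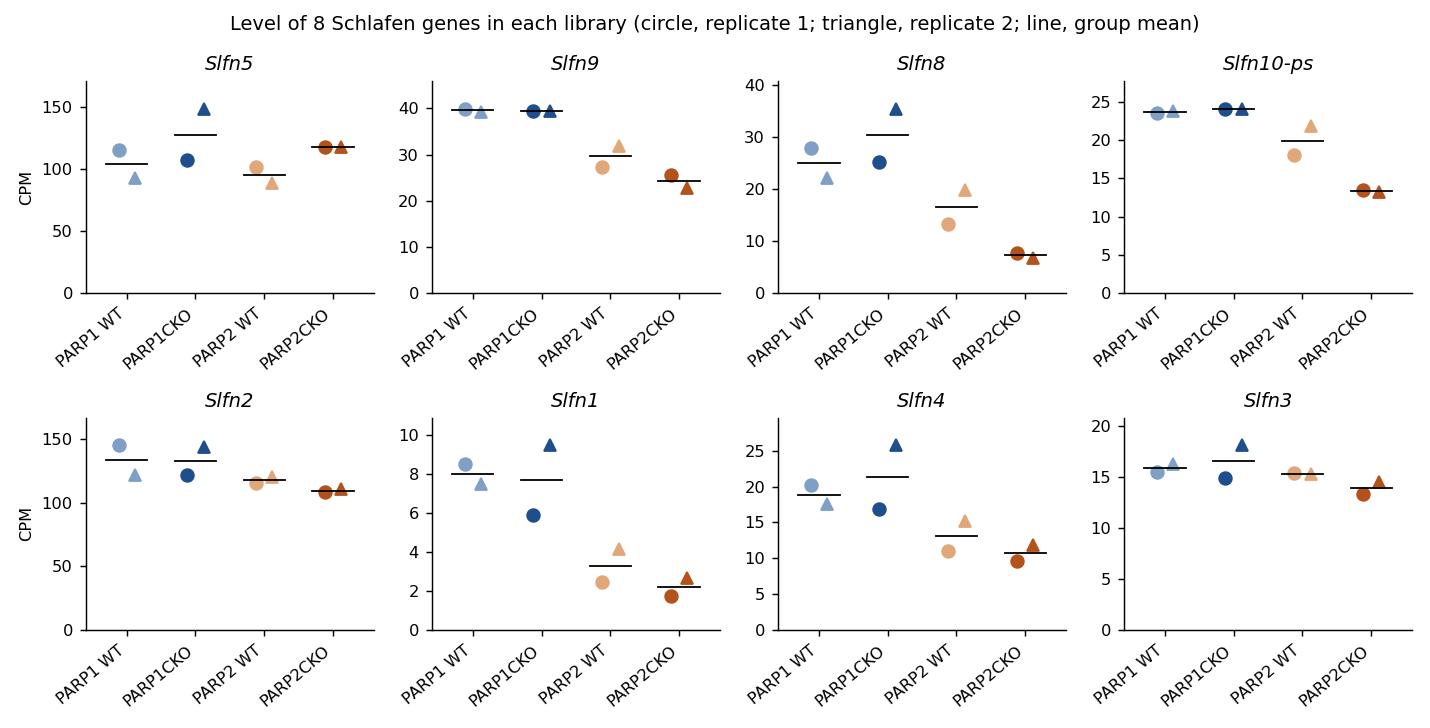
CPM of the 8 Schlafen genes in each library, with 1 panel a gene in chromosomal order; circles are replicate 1, triangles replicate 2 and lines the group means (n = 2). Slfn8 and Slfn10-ps are lowest in both PARP2CKO libraries (7.73 and 6.88, and 13.5 and 13.2 CPM), and Slfn5 has 118 CPM in both.

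Over the cluster, 5 genes (Slfn2, Slfn3, Slfn8, Slfn9 and Slfn10-ps) had both PARP2CKO libraries below both PARP2 WT libraries, and 1 (Slfn5) had both above. Among all genes tested, 18.8% were lower in this way and 18.4% higher. The median log2 fold change of the 8 genes was -0.29, with the median of all genes at -0.00, and it was -0.15 without PARP2 WT replicate 2 and -0.45 without PARP2 WT replicate 1. Because this comparison led to the choice of the genes, nothing is read from these counts.

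PARP1CKO was then compared with PARP1 WT, a contrast that played no part in choosing the genes. None of the 8 Schlafen genes was called at an adjusted p of 0.05 by edgeR's quasi-likelihood test, against 0.106% of all genes tested. The number with an unadjusted p under 0.05 was also 0 of 8, against 11.3% of all genes. DESeq2 and edgeR's likelihood-ratio test, which called 86 and 146 genes over the whole table, likewise called 0 of the 8. The median log2 fold change of the 8 genes was 0.04, beside 0.01 for all genes, and it was 0.22 without PARP1CKO replicate 1 and -0.05 without PARP1CKO replicate 2.

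The highest values in this comparison were those of Slfn5 and Slfn8, while the other long gene, Slfn9, stood at -0.01. Slfn5 had a log2 fold change of 0.29 (standard error 0.148, 95% confidence interval -0.04 to 0.63, adjusted p = 0.484), and over 18 alternative settings its adjusted p from the model fits lay between 0.168 and 0.943. Slfn8 had a log2 fold change of 0.28 in edgeR's quasi-likelihood fit (95% confidence interval -0.18 to 0.74, adjusted p = 0.629), over a range of 0.405 to 0.989 in those settings. For both, the PARP1 WT and PARP1CKO libraries overlapped.

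Slfn4 had a log2 fold change of 0.18 (95% confidence interval -0.28 to 0.64) and Slfn3 of 0.05 (-0.16 to 0.27). Slfn10-ps had a log2 fold change of 0.03 (95% confidence interval -0.16 to 0.22) and Slfn9 of -0.01 (-0.18 to 0.17). Slfn2 stood at -0.00 (-0.21 to 0.20) and Slfn1, the least abundant per length, at -0.06 (-0.68 to 0.56) on the same scale. All 8 intervals included 0, and those of Slfn2, Slfn3, Slfn9 and Slfn10-ps were narrower than those of the other 4 genes. Slfn10-ps was the 1 gene with both PARP1CKO libraries above both PARP1 WT libraries, as 21% of all genes were, though by under 1 CPM, and 0 of 8 had both below, against 20.2%.

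Leaving out 1 PARP1 library moved several of these values. Without PARP1CKO replicate 2 the log2 fold change was 0.01 for Slfn8, 0.04 for Slfn5, -0.16 for Slfn4 and -0.44 for Slfn1. Without PARP1CKO replicate 1 the same genes were at 0.51, 0.51, 0.45 and 0.25. Without PARP1 WT replicate 2 the log2 fold change was 0.11 for Slfn8, 0.14 for Slfn5 and 0.07 for Slfn4, and without PARP1 WT replicate 1 it was 0.45 for Slfn8, 0.45 for Slfn5 and 0.27 for Slfn4. Slfn9 and Slfn10-ps stayed between -0.02 and 0.03 whichever library was left out.

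**Figure D3:**
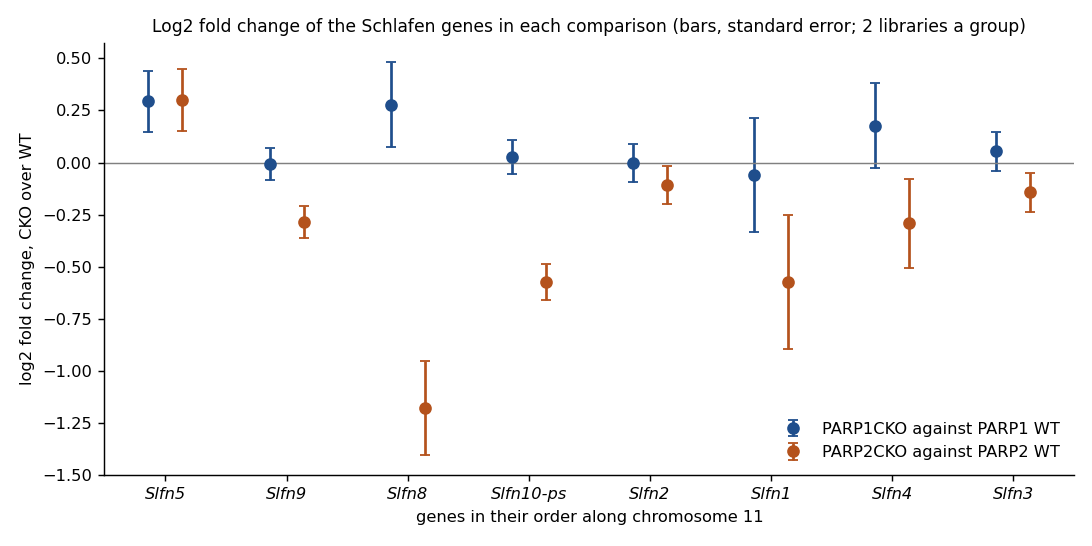
Log2 fold change of each Schlafen gene, CKO over WT, in the PARP1 comparison (blue) and the PARP2 comparison (orange), with genes in their order along chromosome 11 and bars for the standard error (2 libraries a group). In the PARP2 comparison Slfn8 stands lowest at -1.18 and Slfn5 highest at 0.30, while all PARP1 values lie between -0.06 and 0.29.

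The PARP1 and PARP2 lines were also set side by side, as a description, because the WT libraries of the 2 lines were not alike. In all 4 PARP2 libraries 6 genes (Slfn1, Slfn2, Slfn4, Slfn8, Slfn9 and Slfn10-ps) were lower than in all 4 PARP1 libraries, a pattern shown by 9.93% of all genes tested. The ratio of the PARP2 to the PARP1 mean was 0.352 for Slfn1, 0.432 for Slfn8, 0.593 for Slfn4, 0.682 for Slfn9, 0.697 for Slfn10-ps and 0.854 for Slfn2. Slfn3 and Slfn5 overlapped between the lines, with ratios of 0.903 and 0.918.

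Between the WT groups alone, 7 of the 8 genes, all but Slfn5, were lower in both PARP2 WT libraries than in both PARP1 WT libraries, against 25.2% of all genes. The log2 fold change of PARP2 WT over PARP1 WT was -1.28 for Slfn1 (standard error 0.292), -0.59 for Slfn8 (0.209) and -0.53 for Slfn4 (0.208). For Slfn1 this value lay further from 0 than its log2 fold change of -0.57 in PARP2CKO. The same held for Slfn4 (-0.53 beside -0.29), Slfn9 (-0.42 beside -0.29) and Slfn2 (-0.18 beside -0.11). It lay nearer to 0 for Slfn8 (-0.59 beside -1.18), Slfn10-ps (-0.25 beside -0.58), Slfn3 (-0.05 beside -0.14) and Slfn5 (-0.13 beside 0.30). Both values use the PARP2 WT pair, on opposite sides, so scatter in that pair moves them in opposite directions. Nothing is therefore read from which of the 2 lay further from 0. Between the CKO groups, log2 fold changes of PARP2CKO over PARP1CKO were -2.05 for Slfn8 and -1.80 for Slfn1, and 7 genes were lower without overlap, against 28.4% of all genes. The low PARP2CKO values of Slfn8 and Slfn10-ps against PARP2 WT led to the choice of the genes. The PARP2 WT libraries are part of that comparison, so nothing is read from any of the counts between the lines, those of the WT groups included. The lines differ in their floxed locus and possibly in litter and culture, which cannot be told apart here.

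Markers of other cell types moved with the line. The summed level of 6 B cell markers was 29.4 to 42.8 CPM in the PARP1 libraries and 8.05 to 11.3 CPM in the PARP2 libraries, and that of 5 erythroid markers was 3.12 to 6.24 and 1.44 to 1.80 CPM. The 5 basophil and mast cell markers summed to 12.5 to 18.1 CPM in the PARP1 line and 6.42 to 10.6 CPM in the PARP2 line. The 4 dendritic cell markers overlapped, at 11.3 to 15.3 and 8.65 to 12.9 CPM, and so did the 8 T and NK cell markers, which summed to 2.64 to 4.03 CPM over all libraries. All of these sums are small beside the myeloid markers, and no B cell marker was at 0 over the libraries, with Cd79a between 1.94 and 12.8 CPM. Within the PARP2 line the B cell and dendritic cell sums of WT and CKO libraries overlapped. For 4 lists the PARP2CKO sums lay below the PARP2 WT sums without overlap, namely the neutrophil (2819 to 3023 CPM in WT and 2535 to 2804 CPM in CKO), T and NK cell (3.06 to 3.94 and 2.85 to 2.88 CPM), erythroid (1.75 to 1.80 and 1.44 to 1.47 CPM) and basophil and mast cell sums (9.06 to 10.6 and 6.42 to 8.70 CPM). The monocyte and macrophage sum was higher in PARP2CKO, at 4320 to 4592 CPM against 4209 to 4276 CPM. Within the PARP1 line the erythroid sum was higher in PARP1CKO (4.996 to 6.24 CPM) than in PARP1 WT (3.12 to 3.67 CPM), and the sums of the other 6 lists overlapped. Of all genes tested, 18.8% lay lower and 18.4% higher without overlap in PARP2CKO, and 20.2% and 21% in PARP1CKO. Nkg7 alone gave 1.67 to 2.69 CPM of the T and NK cell sum. Nothing is therefore read from these counts of lists. The part of these cells in the Schlafen levels was not tested.

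Slfn8, Slfn9 and Slfn10-ps are close copies, and a read that fits more than one of them can be counted on either or be dropped. Over the GENCODE transcripts, 6.99% of the distinct 75-base windows of Slfn8, 5.9% of Slfn9 and 11.5% of Slfn10-ps occurred unchanged in another gene, 75 bases being the read length. Of the shared Slfn8 windows, 211 were in Slfn10-ps and 156 in Slfn9. Allowing 2 mismatches, 22.8% of the Slfn8 windows had a counterpart in Slfn9 and 18.8% in Slfn10-ps. Added together as 1 row, the 3 genes had a log2 fold change of -0.56 (standard error 0.101) in PARP2CKO and of 0.08 in PARP1CKO (adjusted p = 0.773, edgeR's quasi-likelihood test).

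The other members shared less among themselves, apart from the intermediate pair. No 75-base window of Slfn1 recurred in another gene, and 1.7% of those of Slfn2 did. Slfn3 and Slfn4 shared 45 windows exactly, and 22.1% of the Slfn3 windows had a counterpart in Slfn4 with up to 2 mismatches. Slfn5 shared 417 windows with Slfn5os, a transcript of the opposite strand, which had 0 counts in all 8 libraries. The sources used here do not state whether counting used the strand, so reads of these 2 genes may not have been told apart.

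The genes around the cluster were examined with 10 annotated genes on each side that have a row in the table, of which 13 passed the filter. In PARP1CKO 0 of 13 were called and 2 had an unadjusted p under 0.05 in edgeR's quasi-likelihood test, against 0.106% and 11.3% of all genes. In PARP2CKO 1 of 13 was called, lower, against 0.0455% of all genes tested that were called lower and 0.053% called in either direction, and the median log2 fold change of the 13 was -0.00. An unadjusted p under 0.05 was found for 3 of the 13, against 4.83% of all genes. The called gene was Ccl9, a CC chemokine 621.57 kb from the start of the cluster, at 392 and 554 CPM in the PARP2 WT pair, next to 234 and 236 CPM in the PARP2CKO pair. Ccl9 stood at a log2 fold change of -1.01 (standard error 0.127; edgeR's quasi-likelihood test, adjusted p = 0.0465), and the call was lost without either PARP1 WT or either PARP2CKO library, with a replicate block, in a fit of the 4 PARP2 libraries and with a minimum of 1 CPM in 2 libraries. Nle1, a ribosome biogenesis factor on the other side of Slfn5 (-50.581 kb from its start), had a log2 fold change of 0.24 in PARP2CKO (adjusted p = 0.888 in the same test). Cct6b, at 0.0397 to 0.242 CPM, had a log2 fold change of -1.86 in PARP1CKO with an adjusted p of 0.364 in edgeR's quasi-likelihood test. Slfn14, a further long Schlafen gene beyond Slfn3 that was not among the 8, was barely detected, at 0.231 to 0.605 CPM.

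**Figure D4:**
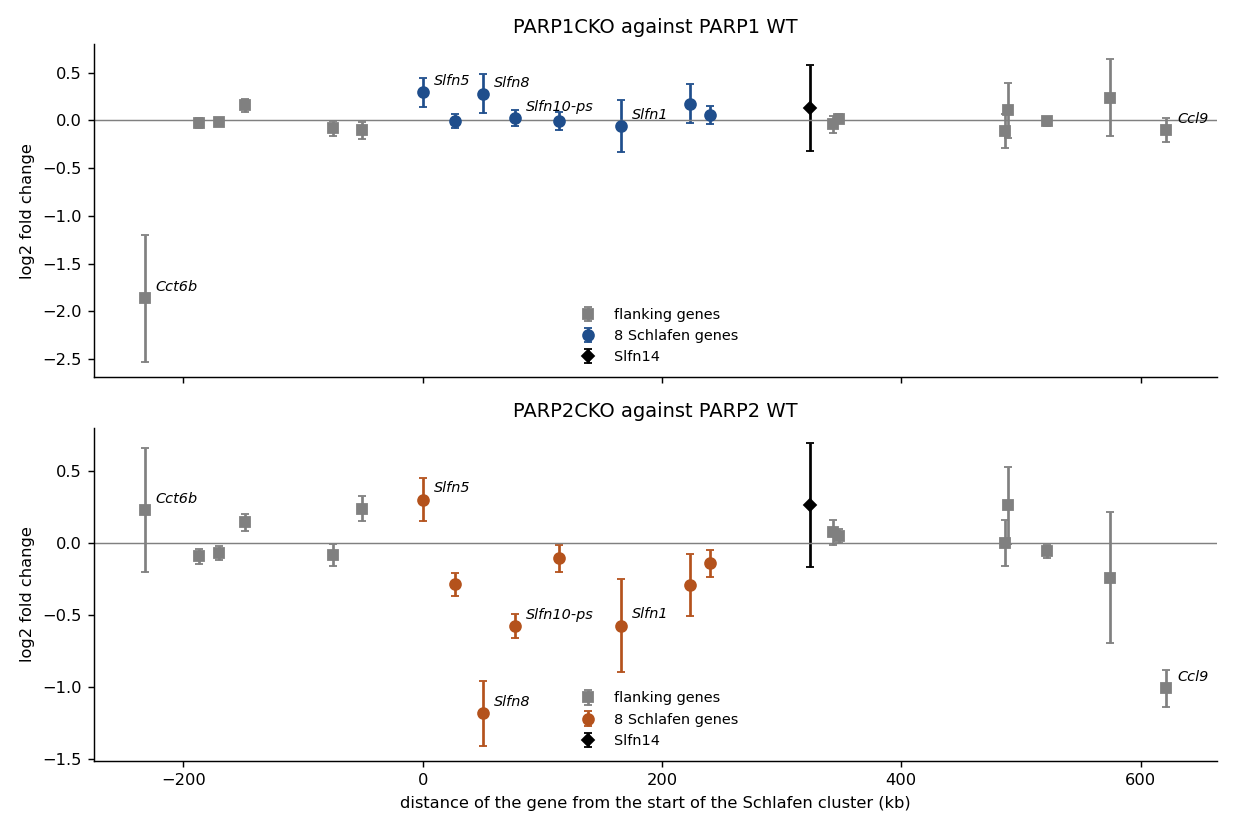
Log2 fold change of the 8 Schlafen genes (colored circles), Slfn14 (diamond) and the 13 flanking genes (grey squares) by distance from the start of the cluster in kb, with bars for the standard error, for PARP1CKO (top) and PARP2CKO (bottom). Slfn8 (-1.18) and Ccl9 (-1.01) are the lowest points in the PARP2 panel, and Cct6b (-1.86) in the PARP1 panel.

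Since many Schlafen genes respond to interferon, a list of 27 interferon response genes was read beside them, of which 26 were in the table and passed the filter. In PARP1CKO 0 of 26 were called by edgeR's quasi-likelihood test (0.106% of all genes), 5 had an unadjusted p under 0.05 (11.3% of all genes), and the smallest adjusted p was 0.300. All 26 had a log2 fold change above 0, with a median of 0.42 beside 0.01 for all genes. This median moved with single libraries. It was 0.02 when PARP1CKO replicate 2 was left out, 0.77 when PARP1CKO replicate 1 was, 0.13 when PARP1 WT replicate 2 was, and 0.79 when PARP1 WT replicate 1 was. Only Oas2, which activates the nuclease RNase L, and Bst2, which tethers budding virions, had both PARP1CKO libraries above both PARP1 WT libraries, as did 21% of all genes. Oas2 had 47.3 and 40.3 CPM in PARP1 WT and 51.9 and 64.5 CPM in PARP1CKO, and Bst2 had 64.7 and 59.6 CPM and 68.7 and 78.3 CPM.

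In PARP2CKO 0 of the 26 interferon response genes were called by edgeR's quasi-likelihood test (0.053% of all genes), and 0 had an unadjusted p under 0.05, against 4.83% of all genes. DESeq2 and the likelihood-ratio test, which called 27 and 39 genes over the whole table, also called 0 of the 26. Of the 26, 25 had a log2 fold change below 0, with a median of -0.27 beside -0.00 for all genes, and 19 had both PARP2CKO libraries below both PARP2 WT libraries, as did 18.8% of all genes tested. The PARP2 median was -0.09 without PARP2CKO replicate 1 and -0.42 without PARP2CKO replicate 2. Trim30a, the most abundant of the list, measured 62.0 and 64.2 CPM in the PARP2 WT pair, next to 52.6 and 60.6 CPM in the PARP2CKO pair. Bst2, the next most abundant, overlapped, at 56.8 and 63.0 CPM in PARP2 WT libraries and 57.8 and 60.3 CPM in PARP2CKO libraries. Oas3 measured 34.5 and 34.9 CPM in the PARP2 WT pair, next to 28.5 and 33.1 CPM in the PARP2CKO pair. Dhx58, a helper of RNA sensing, was the 1 exception, at 19.2 and 19.3 CPM in the PARP2 WT pair, next to 20.1 and 20.2 CPM in the PARP2CKO pair.

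Library by library, the summed level of the 26 genes was 684 and 521 CPM in the PARP1 WT pair, 613 and 866 in the PARP1CKO pair, 419 and 441 in the PARP2 WT pair, and 354 and 410 CPM in the PARP2CKO pair. The highest sum was in PARP1CKO replicate 2, and the sums of all PARP2 libraries lay below those of all PARP1 libraries. The part of interferon in the Schlafen levels was not tested.

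Of 10 genes of interferon signalling, 9 passed the filter and 0 were called in either comparison by edgeR's quasi-likelihood test, against 0.106% of all genes in PARP1CKO and 0.053% in PARP2CKO. In PARP1CKO 2 had an unadjusted p under 0.05 (11.3% of all genes), Ifnar1, a subunit of the type I interferon receptor (log2 fold change 0.13, adjusted p = 0.287), and Stat2, a subunit of the factor that binds the response element (0.27, adjusted p = 0.371). In PARP2CKO 0 had such a p, against 4.83% of all genes. Jak1, the receptor's kinase, was the most abundant and kept a narrow range, from 249 to 264 CPM over the 8 libraries. Ifnb1, the gene of interferon beta itself, had at most 1 count in any library.

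**Figure D5:**
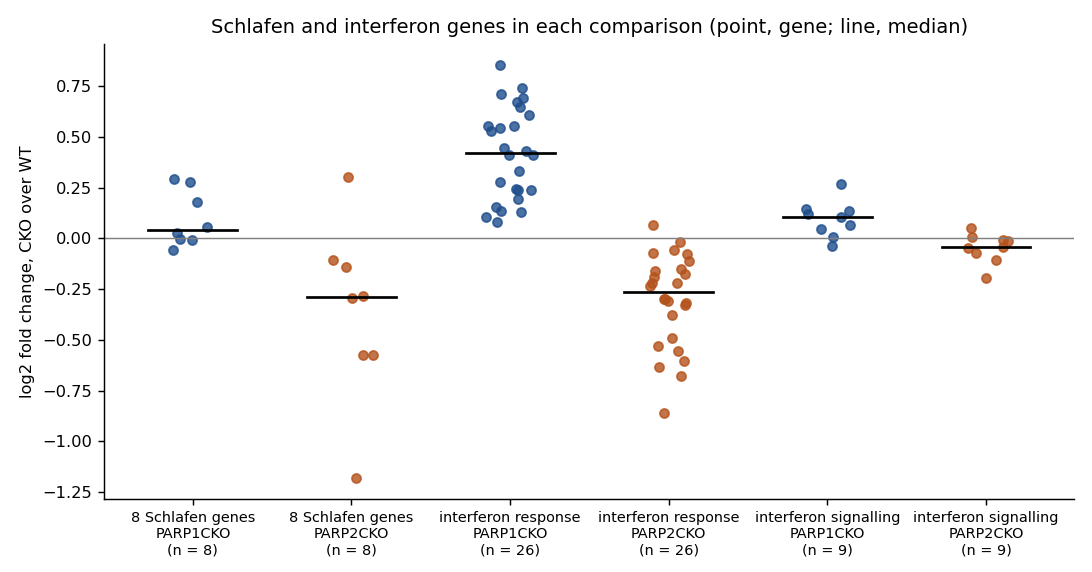
Log2 fold change, CKO over WT, of the 8 Schlafen genes, the 26 interferon response genes and the 9 interferon signalling genes in the PARP1 (blue) and PARP2 (orange) comparisons, with a point for each gene and a line at the median. The response genes center on 0.42 in PARP1CKO and -0.27 in PARP2CKO, with no gene called in either.

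Genes whose log2 CPM ran most like that of Slfn8 over the 8 libraries were found among all 13197 genes by the root mean square difference of centered values. These were Hbb-b1 and Hbb-bs (both 0.216), Lax1 (0.243), Ccl6 (0.259) and Cth (0.261), against a spread of 0.809 for Slfn8 itself. The 2 globin rows held identical counts, and both had a mean of 0.964 CPM. The Schlafen gene most like Slfn8 was Slfn1, at 0.343, in position 14. For Slfn10-ps the nearest gene was Slfn9 (0.108), followed by Slc25a53 (0.112), Chac1 (0.124), Srp9 (0.130) and Rapsn (0.131), against its own spread of 0.348. With a prior count of 0.5 in place of 2, Slfn9 came in position 2, and Lax1 moved from position 3 to 8 for Slfn8, so 4 of its 5 genes stayed among the nearest 5. Lax1 and Cth were low, with means of 0.486 and 0.569 CPM. Slfn8 and Slfn10-ps differed by 0.476 on this measure, which put Slfn10-ps in position 117 among the genes most like Slfn8, and Slfn8 in position 11405 among those most like Slfn10-ps. The measure counts the size of changes as well as their order. A gene with no change at all would lie 0.348 from Slfn10-ps, nearer than Slfn8 with its larger spread of 0.809. Position 11405 therefore does not show that the 2 genes ran in a different order over the libraries.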

How the data were processed

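Total RNA of 8 IMC libraries was sequenced in biological duplicate per group. The deposited table gives unnormalized counts for each gene; the authors had trimmed the single-end reads, mapped them to mm10 with TopHat2 2.0.12, marked duplicates with Picard 1.127 and counted with featureCounts. The annotation and the strand setting are not given in the sources used here. Counts of all 24062 genes were analysed in R 4.3.3 with edgeR 4.0.16: filterByExpr, TMM factors (0.965 to 1.03) and the quasi-likelihood test, with 1 mean per group over the 8 libraries, Benjamini-Hochberg adjustment and a threshold of 0.05. The common biological coefficient of variation was 0.055. Replicates differed by more than sampling noise (chi-square per gene 8.32 to 12.6). That noise covers counting error only, so this check does not show that the libraries are independent. Each library was counted as 1 replicate. The series calls them biological duplicates without naming separate mice, so p-values measure the spread between these libraries, whatever its source.

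The 8 genes and all lists were chosen with earlier results of these data known. Named genes were the 8, Slfn14, Parp1, Parp2, called or abundant list genes, those with the largest or an opposite value, and the 5 most like Slfn8 and Slfn10-ps. Cct6b, Nle1, Ifnb1 and single markers were named after their values were seen. Positions and exon lengths came from GENCODE M21, and promoter windows from RefSeq (GRCm38.p6). The interval is 95%. On 3 simulated tables of the PARP1 comparison (13197 genes) the test recovered 71.6%, 96.7% and 99.5% of log2 changes of 0.5, 1 and 2, and 6.23% of its 578 calls were false. The simulated tables held 176, 214 and 210 genes changed by these amounts, whereas 14 genes were called in the real PARP1 comparison. With fewer calls the adjustment is stricter, so these shares need not hold for the 8 genes. Alternatives were other size factors, DESeq2 1.42.0, a likelihood-ratio test, other filters, 4 libraries, a replicate block, merged copies and each library left out. Figures used matplotlib 3.10.9.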

Additional observations from a re-analysis of the deposited data

Results flagged for a closer look

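Slfn10-ps had both PARP1CKO libraries above both PARP1 WT libraries and both PARP2CKO libraries below both PARP2 WT libraries. The PARP1CKO value was a log2 fold change of 0.03 with a 95% confidence interval of -0.16 to 0.22, which includes 0, and the PARP2CKO value, for which the gene was chosen, was -0.58. They differed by -0.60 on the log2 scale. The difference was not tested, since the PARP2 comparison was used to choose the gene. Of the 13197 genes tested, 873 (6.62%) had opposite directions without overlap in this sense.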

How the results depend on the processing

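No Schlafen gene was called in PARP1CKO under any of the 18 alternatives. Added together as 1 row, Slfn8, Slfn9 and Slfn10-ps stood at 0.085 in PARP1CKO and -0.56 in PARP2CKO on the log2 scale, values of the sum and not of a single gene. Leaving out each library, Slfn8 ranged from -1.44 to -0.87 and Slfn10-ps from -0.71 to -0.43 in PARP2CKO, both nearest to 0 without PARP2 WT replicate 2. In PARP1CKO the sign turned for Slfn1 (-0.44 to 0.25), Slfn2 (-0.13 to 0.12), Slfn3 (-0.089 to 0.19), Slfn4 (-0.16 to 0.45) and Slfn9 (-0.024 to 0.0017). The flanking genes called in PARP2CKO (1 in the reported fit, Ccl9) numbered 0 in a fit of 4 libraries, with a minimum of 1 CPM in 2 libraries or with a replicate block, and 0 to 1 with a library left out. The cause was not tested. Of all values recomputed, 429 stayed the same, 29 moved and 8 changed sign. For PARP1CKO fold changes, staying the same meant an unchanged direction and call. For PARP2CKO fold changes it meant a shift under the replicate spread, and for a count a change of at most 1.5 times.

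The replicate numbers were not a pairing that the labels explain, and same-numbered libraries deviated with a correlation of -0.13 in PARP1 and 0.15 in PARP2. With a replicate block 14 genes were called in PARP1CKO and 6 in PARP2CKO over the whole table, against 14 and 7 without it. With the PARP1CKO numbers crossed, an alternative chosen after seeing the data, 18 and 7 were called. DESeq2 called 86 and 27, the likelihood-ratio test 146 and 39, and the fit with no filter on low counts 101 and 26. With a library left out, 1 to 34 and 4 to 19 were called.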
